A study of Spodoptera frugiperda with 18 samples.

Results

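Female pupae of the fall armyworm, Spodoptera frugiperda, a moth pest of maize, were compared with male pupae for their microRNAs (miRNAs). The comparison used 6 of the 18 small RNA libraries of a series that follows the insect from egg to adult. They were 3 female pupae libraries, from days 1, 4 and 7 of the pupal stage, and 3 male pupae libraries from the same days, chosen by their labels and paired by day. Each sex and day had 1 library of total RNA, no treatment is named for any group, and the labels give neither a strain nor the number of animals in a library. The 4 adult libraries, female and male on days 1 and 4, were used to ask whether a sex difference of pupae was the same in adults. The 3 days served as the replicates of the sex difference, so each mean ± SD below holds changes with age. A p-value of the pupal sex difference sets it against its variation between the days, which may be technical. It holds no replicate of any sex and day. Fewer cells of a type and less RNA per cell cannot be told apart in libraries of this kind, and no tissue was separated.

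A miRNA is a short RNA that guides an Argonaute protein to messenger RNAs, mainly by pairing of its seed, bases 2 to 8, and so lowers the output of the matching genes. In insects the pupa is the stage in which ovaries, testes, flight muscle and the adult nervous system are built, and some miRNAs are known to be concentrated in the gonads. miR-989 is the classic ovary miRNA of mosquitoes and flies, and in Drosophila it acts in the follicle cells during border cell migration. miR-998 and miR-11 lie together in an intron of the E2f1 gene in Drosophila, where they restrain cell death. The names used here are those of the table. Names beginning with sfr- belong to the species, names ending in -x, -y or -z are family names borrowed from other animals, and names such as m0052-5p are the depositors' predictions.

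The sequences that carry the sex differences follow, read 5′ to 3′ and written with T in place of U. The first set holds 5 miRNAs called higher in males and miR-2763-z, whose male excess changed with day, with the seed in capitals.
miR-3338-y: cATGTACTtactttgtttgttct
predicted m0043-3p: tTTGGCACttgatctatttctaaa
miR-998-y: tAGCACCAtgggattcagctca
predicted m0103-5p: tTCCTGTTgacgccaattttttt
predicted m0111-5p: aGAGAGGAactgccagcgccc
miR-2763-z: tATTATGCtcattactttggat
The second set holds miRNAs with more reads in females, again with the seed in capitals.
miR-989-z: gTGTGATGtgacgtagtggaag
predicted m0017-5p: cATCGACAtcgtcagaaact
predicted m0012-3p: tCCGAATGtaggccttgtagatgcc
The third set compares a pair of male-high predicted miRNAs with forms of the Hox cluster miRNA miR-10, and the capitals mark the run of 16 bases that all 4 share.
predicted m0024-5p: ACCCTGTAGATCCGAActttaa
predicted m0052-5p: ACCCTGTAGATCCGAActttat
miR-10-x: ACCCTGTAGATCCGAAtttgtta
sfr-miR-10-5p: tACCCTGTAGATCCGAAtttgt
The predicted pair shared 21 bases from their first base and differed only in the last one. In sfr-miR-10-5p the run starts at base 2, so its seed is shifted by 1 base against those of the other 3. The predicted pair also shares a run of 14 bases, from base 6 in each, with the abundant miR-100-x, which has another seed. m0043-3p has the seed of sfr-miR-263b-5p, and miR-998-y has that of sfr-miR-285-3p.

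The libraries were not alike in depth. The female libraries held 2739644, 3079700 and 3473742 miRNA counts on days 1, 4 and 7, and the male libraries 2879957, 472581 and 418883. A level of 3 counts was worth 6.35 CPM (here, counts scaled by the library total) in males of day 4 and 7.16 CPM in males of day 7, against 0.864 to 1.1 CPM in the other 4. The late male libraries also held more reads in 85 rows, those on a list of family names known from vertebrates and not from insects. The list need not be complete, so a row outside it may bear such a name too. These 85 rows took 0.0019%, 0.0933% and 0.0601% of the counts in females of days 1, 4 and 7, and 0.00292%, 0.158% and 0.703% in males. Of the 85 rows, 75 were at 0 in females of day 1 and 10 in males of day 7. Day 1 is therefore the only day on which females and males had close to equal depth and few such reads.

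**Figure D1:**
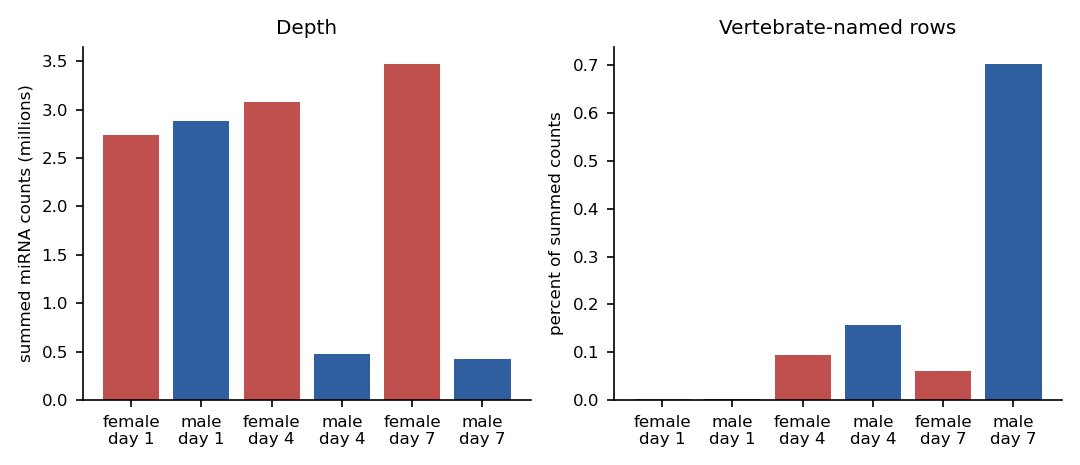
Summed miRNA counts per library (left) and the share of counts in vertebrate-named rows in percent (right) for the 6 pupal libraries, with females in red and males in blue. The male libraries of days 4 and 7 hold 472581 and 418883 counts, and the vertebrate-named rows reach 0.703% in males of day 7.

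Across abundant miRNAs the sexes of 1 day were mostly closer to each other than libraries of 1 sex on different days were. Over the 142 miRNAs with a mean of at least 100 CPM, females and males differed by a mean of 0.494 on the log2(CPM + 1) scale on day 1, 0.759 on day 4 and 0.853 on day 7. Libraries of the same sex on different days differed by 0.777 to 1.46 on the same scale, and only the males of days 4 and 7, at 0.777, were closer than females and males of day 7. The 6 most abundant miRNAs were miR-100-x, miR-276-y, miR-263-x, bantam-y, miR-8-y and sfr-miR-10-5p, and none of them passed the test between the sexes. miR-100-x, a partner of let-7 in the timing of metamorphosis, stood at 201818, 208753 and 256702 CPM in females of days 1, 4 and 7 and at 151706, 198905 and 212497 CPM in males. The fitted log2 difference, female minus male, was 0.25 (SE 0.13), and the ranges of the sexes overlapped.

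The sexes differed in a small set of miRNAs, most of them higher in males. Of 316 miRNAs tested, 18 passed an adjusted p of 0.05 (5.7%), 2 higher in females (0.633%) and 16 higher in males (5.06%), by edgeR's quasi-likelihood test with day as a block. The 16 fell into one set that was higher in males on all 3 days and another that was near 0 in both sexes on day 1 and had reads mostly in males of days 4 and 7. The first set held miR-3338-y, miR-998-y and the predicted m0024-5p, m0052-5p, m0043-3p, m0103-5p and m0111-5p. All 3 libraries of one sex lay above all 3 of the other for 19 miRNAs with females above (6.01%) and for 19 with males above (6.01%). All 7 miRNAs of the first set were among the latter. At least 4-fold on every day were 1 of 274 miRNAs towards females (0.365%), miR-989-z, and 3 towards males (1.09%), miR-3338-y, m0024-5p and m0052-5p. With a pseudocount of 5 CPM in place of 1, 0 passed towards females, so miR-989-z was lost, and 2 towards males. The count of 18 changed as single libraries were left out. It was 0 without males of day 1 (62 at an unadjusted p under 0.05), 1 without males of day 7 (miR-3338-y) and 34 without males of day 4. It was 28, 33 and 24 without females of days 1, 4 and 7. With day as a block, leaving out either library of a day takes that day out of the sex difference. Both fits of a day thus rest on the same other days, and their counts cannot show that 1 library carries the calls. Without both late male libraries, in a fit with the adults, edgeR called 0 of 360, with 13 at an unadjusted p under 0.05, and without the day block it called 2 of 316.

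**Figure D2:**
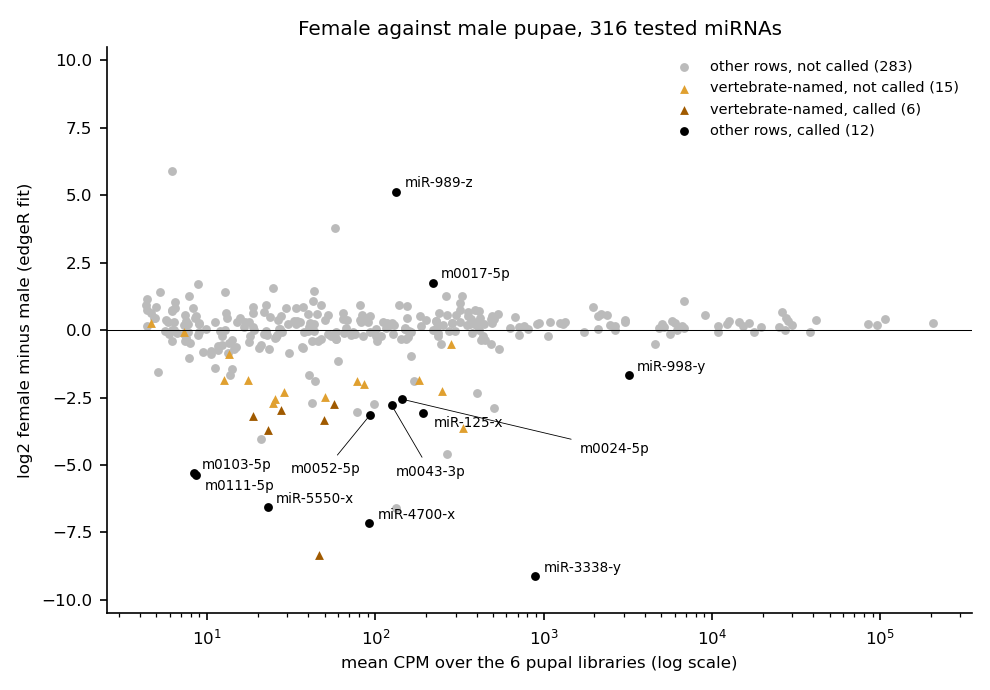
Fitted log2 difference, female minus male, against the mean CPM over the 6 pupal libraries (log axis) for the 316 tested miRNAs. The 12 called miRNAs that are not vertebrate-named are black and labelled, and the 6 called vertebrate-named rows are brown triangles below 0.

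The largest fitted sex difference was that of miR-3338-y, a family name with no role given here. Its level was 3.32, 2.32 and 3.89 CPM in females of days 1, 4 and 7, from 9, 7 and 11 counts. In males it was 1943, 1964 and 1443 CPM on the same days. Every male library stood far above every female one, and the male to female ratio was 585 on day 1, the day of even depth. The group means were 3.18 ± 0.795 CPM in females and 1783 ± 295 CPM in males (SD, n = 3 days), and the fitted log2 difference was -9.10 (SE 0.35, adjusted p = 0.000638). It was called in 15 of 17 other fits, with adjusted p from 3.56e-107 to 0.0553. The 2 fits in which it was not called were those without males of day 1, where the log2 difference was -9.09, and without both late male libraries, where it was -9.28.

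The miR-10-like predicted pair was also higher in males on each day. m0052-5p stood at 17, 24.6 and 15.6 CPM in females of days 1, 4 and 7 and at 173, 178 and 149 CPM in males. The groups were far from overlapping, and the log2 difference was -3.15 (SE 0.23, adjusted p = 0.0069). Of 17 other fits, 13 called m0052-5p, and with counts thinned to the smallest pupal library its adjusted p was 0.0986. m0024-5p stood at 52.1, 36.5 and 34.3 CPM in females and at 310, 284 and 151 CPM in males, with a log2 difference of -2.56 (SE 0.24, adjusted p = 0.0155). Of 17 other fits, 12 called m0024-5p, and with thinned counts its adjusted p was 0.0512. Since the pair differs in 1 base, reads of either could have been counted under the other, and they are not 2 independent results. The abundant sfr-miR-10-5p, which holds the same 16-base run, differed by -0.05 (SE 0.21), and miR-10-x, which has the same seed, by 0.10 (SE 0.18). Of the other rows with that seed, sfr-miR-2756-5p differed by -0.22 (SE 0.22) and m0048-5p by -0.10 (SE 0.22), and neither passed the test.

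The predicted m0043-3p had 24.4, 27.9 and 44.6 CPM in females of days 1, 4 and 7 and 258, 241 and 154 CPM in males. The groups did not overlap, and the log2 difference was -2.78 (SE 0.39, adjusted p = 0.0297). The call held in 12 of 17 other fits, and with counts thinned to the smallest pupal library the adjusted p was 0.0781. sfr-miR-263b-5p has the same seed and belongs to a family that protects sensory bristles from cell death in Drosophila. It went from 551 to 5875 CPM in females and from 485 to 4616 CPM in males between days 1 and 7, and differed between them by 0.19 (SE 0.15). The remaining predicted pair was rare. m0103-5p had 128, 6 and 1 counts in males of days 1, 4 and 7 against 2, 1 and 0 in females, and m0111-5p had 90, 8 and 4 counts in males against 2, 0 and 1 in females. Their log2 differences were -5.28 (SE 0.62, adjusted p = 0.0159) and -5.37 (SE 0.74, adjusted p = 0.0297), on days 4 and 7 they rest on at most 8 counts, and without females of day 1 their adjusted p was 0.0724 and 0.0574.

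miR-998-y was the most abundant miRNA with a called sex difference. Females had 1257, 1427 and 1936 CPM on days 1, 4 and 7, and males 5405, 5200 and 3970 CPM. The lowest male library was above the highest female one, and the male to female ratio was 4.3, 3.64 and 2.05 on the 3 days. The fitted log2 difference was -1.67 (SE 0.26, adjusted p = 0.0318), and the call was lost in 7 of 17 other fits, among them those without females of day 1 (adjusted p = 0.0524), males of day 1 (0.124) and males of day 7 (0.124). miR-11, which shares a transcript with miR-998 in Drosophila, did not pass the test: sfr-miR-11-3p had 9301, 10259 and 12180 CPM in females against 9144, 11855 and 12657 CPM in males, a log2 difference of -0.08 (SE 0.13). Neither was its partner in seed, sfr-miR-285-3p, called, with a log2 difference of 0.29 (SE 0.32) and overlapping groups. Whether miR-998-y differed from miR-11 in its sex difference was not tested.

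**Figure D3:**
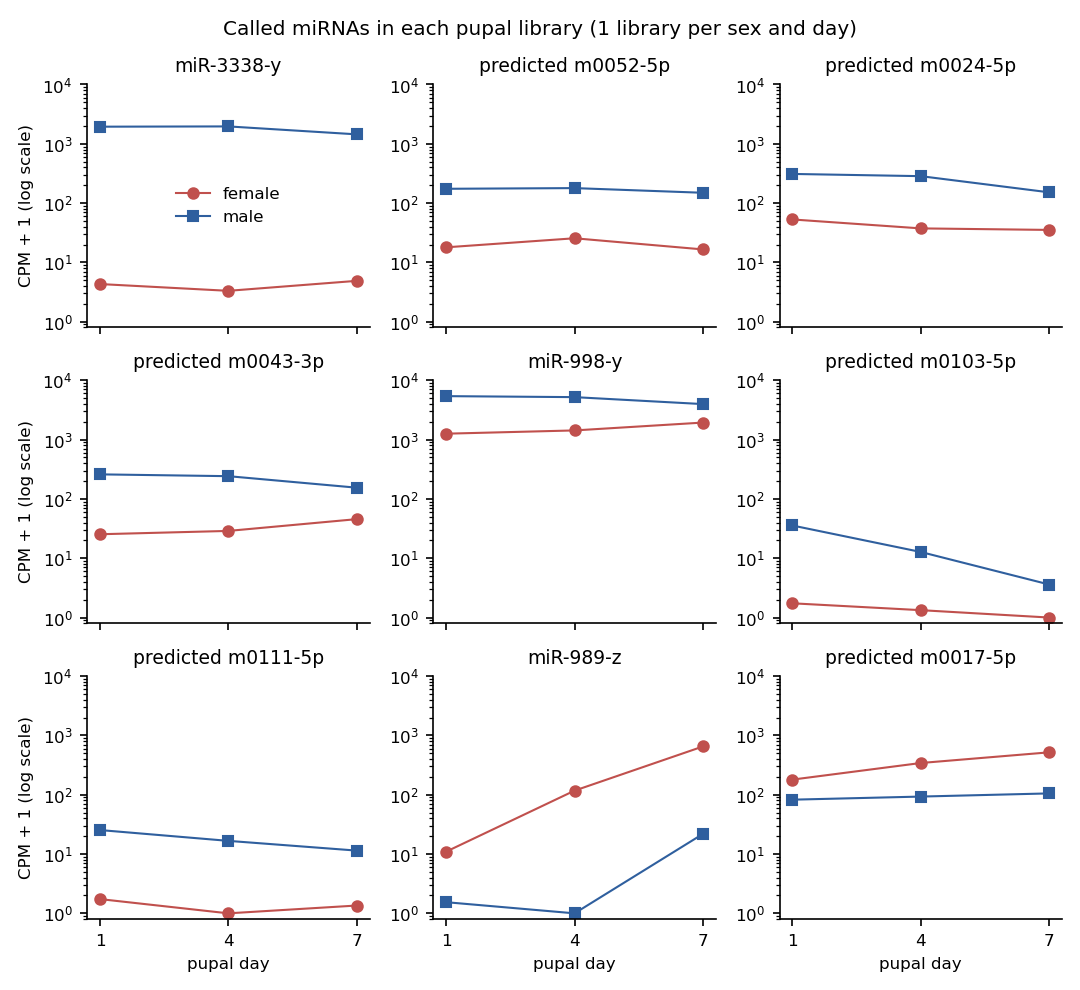
CPM + 1 on a log axis against pupal day for 9 of the 18 called miRNAs, with females as red circles and males as blue squares, 1 library per point. The 7 miRNAs higher in males on all 3 days come first, then miR-989-z, which reaches 649 CPM in females of day 7, and the predicted m0017-5p.

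Beyond these calls, 2 miRNAs just missed the threshold, both with all male libraries above all female ones. sfr-miR-932-5p, a miRNA of nervous tissue in other insects, had 7.02, 24.6 and 6.37 CPM in females of days 1, 4 and 7 and 52, 72.4 and 88.6 CPM in males. Its log2 difference was -2.69 (SE 0.50), with an adjusted p of 0.0500255. m0023-3p had 89.4, 96.2 and 145 CPM in females against 176, 176 and 294 CPM in males, a log2 difference of -0.96 (SE 0.18) with the same adjusted p. Its male to female ratio was 1.97, 1.83 and 2.03 on the 3 days. miR-7-x, which acts in sensory neurons and photoreceptors of flies, had a similarly even but smaller difference. It went from 299 to 112 CPM in females and from 419 to 164 CPM in males between days 1 and 7, and its log2 difference of -0.52 (SE 0.17) did not pass the test (adjusted p = 0.176).

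Among miRNAs higher in females, miR-989-z had the largest called difference. Females had 9.97, 116 and 649 CPM on days 1, 4 and 7, from 27, 350 and 1834 counts. Males had 0.541, 0 and 20.8 CPM, from 2, 0 and 8 counts. Females were above males on each day, by 18.4-fold on day 1, by at least 19.8-fold on day 4, where a floor of 3 counts in the male library stands in for 0, and by 31.2-fold on day 7. The groups overlapped across days, since females of day 1 lay below males of day 7. The fitted log2 difference was 5.14 (SE 0.57, adjusted p = 0.0155). It was called in 12 of 17 other fits. The call was lost without males of day 1 (adjusted p = 0.108), without males of day 7 (0.365), without the day block (0.664), with limma (0.079) and without both late male libraries (0.849).

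The other forms of miR-989 had the same direction at lower levels. miR-989-y, a near copy that shares 20 bases with miR-989-z, had 1, 7 and 97 counts in females of days 1, 4 and 7 and 0 counts in all 3 male libraries. Its adjusted p was 0.156. The predicted m0120-3p shares 21 bases and had 12 counts in females of day 7 and none in the other 5 pupal libraries, too few to be tested. Counts of these rows could have been split from those of miR-989-z. The other members of the ovary and germline list were miR-184, miR-92 and miR-2765 and their forms. Of 11 members tested, 1 was called higher in females, miR-989-z, and 0 higher in males, against 2 and 16 of all 316 tested. The list's median log2 difference was 0.29, against 0.10 over all tested. miR-184-y, an abundant miRNA needed for oogenesis in Drosophila, differed by 0.34, with an adjusted p of 0.346.

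The predicted m0017-5p was the other miRNA called higher in females. Females had 179, 341 and 517 CPM on days 1, 4 and 7, and males 81.5, 92 and 104 CPM. Every female library was above every male one, and the ratio was 2.19 on day 1, 3.71 on day 4 and 4.96 on day 7. The log2 difference was 1.76 (SE 0.29, adjusted p = 0.0366). It was called in 11 of 17 other fits, and with library totals alone in place of normalization factors the adjusted p was 0.062. That scaling moved the median log2 difference of all tested miRNAs from 0.10 to -0.13.

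The second set of male-high calls came from the late male libraries. It held 6 vertebrate-named rows, miR-148-y, miR-152-y, miR-181-x, miR-199-y, miR-23-y and miR-301-x, together with miR-125-x, miR-4700-x and miR-5550-x. That class follows the list of family names, and rows outside the list, such as miR-4700-x, may also bear names from vertebrates. On day 1 these 9 rows had from 0 to 4 counts in either sex. miR-301-x then had 97.9 and 177 CPM in males of days 4 and 7 and 0 and 0.708 CPM in females, a log2 difference of -8.35 (SE 0.70, adjusted p = 0.0155). miR-4700-x had 157 and 391 CPM in males of those days against 0.332 and 3.89 CPM in females, a log2 difference of -7.16 (SE 0.60, adjusted p = 0.0155). Outside pupae, miR-301-x was at 0 in all 12 libraries and miR-4700-x reached at most 3.7 CPM. Other rows of the set were read at other stages: miR-125-x reached 1091 CPM, miR-199-y 459 CPM, miR-148-y and miR-181-x 163 CPM, miR-23-y 141 CPM and miR-152-y 122 CPM in a larval library.

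In males, the vertebrate-named share was highest in the same late libraries, which were also the shallowest. In females that share was lower on day 7 than on day 4, while all 9 rows of the set were higher on day 7, and 6 of the 9 are themselves counted in the share. The part of such reads, or of depth, in the result was not tested. Of the 85 vertebrate-named rows, 21 were tested, 0 were called higher in females and 6 higher in males, against 0.633% and 5.06% of all tested rows, and their median log2 difference was -2.30, against 0.10 over all tested rows. By day, the median over the 21 was 0.00 on day 1, -1.35 on day 4 and -3.28 on day 7. Without these rows the test called 14 of 295 miRNAs, 12 of them among the 18. In all, 15 rows with a mean of at least 10 CPM had at least 90% of their pupal CPM in the late male libraries, 8 of them vertebrate-named. Of the 15, 7 were called higher in males, against 5.06% of all tested rows. Since the 15 were picked by their reads in late males, the direction of these calls was set by that choice. Another 4 of the 15 were tested and not called: miR-199-x, miR-8487-z, miR-5119-z and miR-125-z. The most abundant, miR-199-x, had 302 and 1555 CPM in males of days 4 and 7 against 7.96 and 135 CPM in females (log2 difference -3.64, SE 1.10, adjusted p = 0.156). miR-5119-z had 262 and 526 CPM in males of days 4 and 7 and 0 and 7.79 CPM in females, and miR-8487-z had 487 and 1081 CPM against 6.97 and 13.8 CPM.

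miR-125-x belongs to the let-7 complex, which times adult development in flies, and its values followed those of the second set. It had 2, 72 and 220 counts in females of days 1, 4 and 7 and 4, 116 and 317 counts in males. On the CPM scale this was 0.738, 23.9 and 77.9 in females and 1.08, 227 and 826 in males, and 91% of its pupal CPM lay in the late male libraries. Its log2 difference was -3.06 (SE 0.47, adjusted p = 0.0318). The other 9 tested members of the let-7 complex were not called. miR-125-z, a near copy of miR-125-x with 92.7% of its pupal CPM in the late males, differed by -4.04 (adjusted p = 0.0959) and miR-99-z by -2.75 (adjusted p = 0.156), and reads of the miR-125 forms could have been split. let-7-x differed by 0.44 (adjusted p = 0.176) and let-7-y by 0.59 (adjusted p = 0.146).

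Single-day counts showed the same split. At least 4-fold higher in males were 7 of 274 miRNAs on day 1, 29 on day 4 and 43 on day 7. Vertebrate-named rows made up 0, 10 and 25 of these, while 249 of the 274 were not vertebrate-named. On day 7 every vertebrate-named row considered was thus at least 4-fold higher in males. The 274 had a mean of at least 10 CPM over the 6 pupal libraries, a filter that rows can pass through the late male libraries alone. The day 7 count of vertebrate-named rows was therefore partly set by the filter. At least 4-fold higher in females were 1, 3 and 9 miRNAs on the 3 days. These counts compare single libraries and carry no test.

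Some sex differences changed with pupal day. The test of the sex by day term called 10 of 316 miRNAs (3.16%), 5 of them vertebrate-named rows (miR-21-x, miR-22-y, miR-26-x, miR-27-y and miR-30-x) that moved towards males. The other 5 were m0012-3p, miR-2763-z, miR-1-x, sfr-miR-375-5p and m0004-3p. m0004-3p nearly matches the 3p arm of the same miRNA, sfr-miR-375-3p, so that these are not 2 independent results. This fit leaves 1 residual degree of freedom. limma called 0 of 316, with 27 at an unadjusted p under 0.05, and edgeR over the 10 pupal and adult libraries called 0 of 344, with 18.

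The predicted m0012-3p was read mainly in females of days 4 and 7. It had 9, 218 and 757 counts in females of days 1, 4 and 7 and 10, 0 and 0 counts in males. At the levels of 72.3 and 268 CPM on days 4 and 7, females were at least 12.3-fold and at least 34.3-fold above the floor of 3 counts in the male library. The fitted change of the sex difference was 2.90 log2 units per day (SE 0.43, adjusted p = 0.00065). With 0 counts in males of days 4 and 7 the size of this slope is poorly determined. It ran from 1.49 to 2.985 over 8 other fits. On the log2(CPM + 1) scale the difference was 0.22, 6.20 and 8.07 on days 1, 4 and 7. The mean difference over days did not pass the test (adjusted p = 0.254).

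miR-2763-z, a miRNA first named in the silk moth, went the other way, from a strong male excess towards evenness. Females had 24, 160 and 336 CPM on days 1, 4 and 7, and males 639, 959 and 938 CPM. All male libraries were above all female ones, and the male to female ratio was 26.6, 6 and 2.79. The difference moved towards females by 0.54 log2 units per day (SE 0.10, adjusted p = 0.00227), while the mean difference of -2.88 (SE 0.73) did not pass the test (adjusted p = 0.146).

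The remaining changes with day arose in late pupae. In females of days 1, 4 and 7 sfr-miR-375-5p stood at 24.7, 5.31 and 66.6 CPM, while males had 10.3, 35.2 and 870 CPM. Males were lower on day 1 and higher on days 4 and 7, a change of -0.82 log2 units per day (SE 0.13, adjusted p = 0.00318). m0004-3p had 22.9, 1.66 and 15.6 CPM in females against 23.3, 7.83 and 193 CPM in males, a change of -0.60 per day (SE 0.11, adjusted p = 0.00227). miR-1-x, named for the muscle miRNA miR-1, had 33.6, 37.2 and 78.2 CPM in females against 51.4, 25.5 and 13 CPM in males. Its change was 0.51 per day (SE 0.13, adjusted p = 0.0226), and the male value of day 7 comes from 5 counts. The abundant form miR-1-y showed no such change (-0.08 per day, adjusted p = 0.918).

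**Figure D4:**
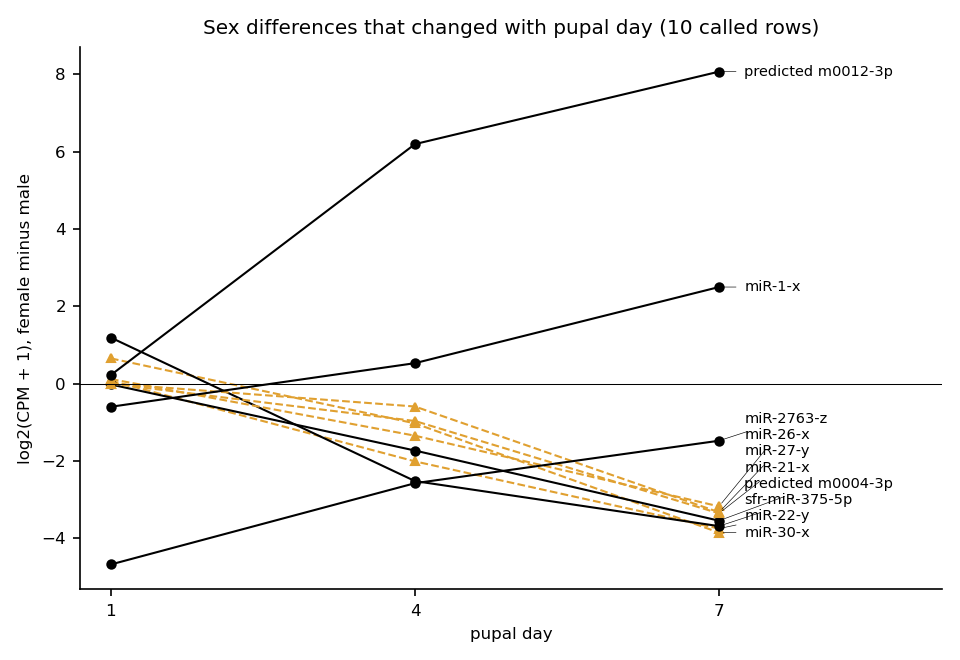
Female minus male difference on the log2(CPM + 1) scale against pupal day for the 10 miRNAs whose sex difference changed with day, with vertebrate-named rows as dashed lines with triangles. The predicted m0012-3p climbs to 8.07 on day 7, miR-2763-z rises from -4.68 to -1.48, and the vertebrate-named rows lie near 0 on day 1 and below -3 on day 7.

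The counts called in functional groups are to be read against the 5.7% called over all 316 tested miRNAs, at which most short lists would hold no call or 1. No member was called among 13 tested of the moulting and ecdysone list, 14 of the neuronal and sensory list, 4 of the muscle list, 10 of the Hox cluster and 53 with names known from moths and other Lepidoptera. The clusters of miR-277, miR-71, miR-275, miR-12 and miR-9 had 9, 11, 5, 4 and 7 members tested and none called. Of 15 tested members of the growth, apoptosis and fat list, 1 was called, miR-998-y, higher in males, which is close to the 5.06% of all tested miRNAs called in that direction. In the same list bantam-y, which promotes growth and survival in flies, differed by 0.24 and miR-8-y, which sets body size through the fat body, by 0.39. Of the 57 predicted miRNAs tested, 1 was called higher in females and 5 higher in males, against 0.633% and 5.06% of all tested miRNAs. Their median log2 difference was -0.03, against 0.10 over all tested. Among called miRNAs of the lists, miR-3338-y had been put on its list of male-high miRNAs from earlier results of these data, so its direction there is not independent. The other tested members of that list, sfr-miR-375-5p and sfr-miR-375-3p, differed by -1.87 (adjusted p = 0.452) and -1.03 (adjusted p = 0.62).

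Below the threshold, several rows had a higher CPM in females on all 3 days, some of them only slightly on day 1. The largest mean differences among miRNAs of at least 100 CPM, after miR-989-z and m0017-5p, were those of miR-9995-y, miR-9993-y and miR-10505-y. The first 2 are near copies of 18 bases that end in CCA, and are not independent. On day 1 miR-9993-y took 1002 of 2739644 counts in females and 1107 of 2879957 in males. Its direction on that day therefore depends on the normalization factors. With those factors, miR-10505-y and its near copy sfr-miR-10505-3p were near even on day 1 and higher in females later. Before scaling, they took 515 and 10558 counts in females of day 1 and 674 and 15069 in males. Their evenness on day 1 thus also depends on the factors. sfr-miR-10505-3p had 3898, 15652 and 9576 CPM in females of days 1, 4 and 7 and 4078, 4656 and 3274 CPM in males, a log2 difference of 1.09 (SE 0.41, adjusted p = 0.231). miR-137-y, a neuronal miRNA, had 226, 240 and 763 CPM in females against 185, 125 and 370 CPM in males, with an adjusted p of 0.156. On day 1 it took 611 counts in females and 684 in males, so its direction on that day depends on the same factors.

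The sex differences were compared with those of adults of days 1 and 4, where levels are CPM of the library total. The difference between females and males, adults minus pupae, passed the test for 11 of 344 miRNAs (3.2%). Of the 18 miRNAs called in pupae, 4 were among them: miR-989-z, miR-998-y, miR-3338-y and miR-152-y. The count was 58 and 50 without adult females and males of day 1, and 0, 4, 1, 0, 2, 4 and 0 without adult females of day 4, adult males of day 4, the female pupae of days 1, 4 and 7 and the male pupae of days 1 and 4. At a count of 0 the same fits had 34, 44 and 46 miRNAs at an unadjusted p under 0.05, in that order.

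miR-998-y turned over between the stages. Adult females had 4110 and 15189 CPM on days 1 and 4 and adult males 2180 and 2628 CPM, so that females were higher on both adult days and males on all 3 pupal days. The adult minus pupal change was 2.91 log2 units (SE 0.57, adjusted p = 0.0469). It stood at 100170 CPM in the egg. miR-3338-y stayed male-high in adults, where females stood at 12.4 and 14.2 CPM against 1047 and 734 CPM in males, and the difference was smaller than in pupae by 2.59 log2 units (SE 0.53, adjusted p = 0.0469). It stood at 1266 CPM in the prepupa, at 0 counts in the egg, and at 0 to 148 CPM in larvae.

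miR-989-z differed more in adults. Adult females had 4724 and 20612 CPM on days 1 and 4 and adult males 1.47 and 1.03 CPM, an excess over the pupal difference of 7.37 log2 units (SE 1.20, adjusted p = 0.0469). The predicted m0012-3p showed a like course without a called change (adjusted p = 0.186), with 1462 and 4247 CPM in adult females, 0 and 0.515 CPM in adult males and 9093 CPM in the egg. The male-high predicted miRNAs had smaller differences in adults, with no called change. m0052-5p had 23.5 and 30.9 CPM in adult females and 63.3 and 49.2 CPM in adult males, and its change of 1.62 log2 units (SE 0.52) did not pass the test (adjusted p = 0.158). sfr-miR-375-5p, which had turned to males by pupal day 4, stood at 119 and 164 CPM in adult females and 4722 and 8381 CPM in adult males.

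**Figure D5:**
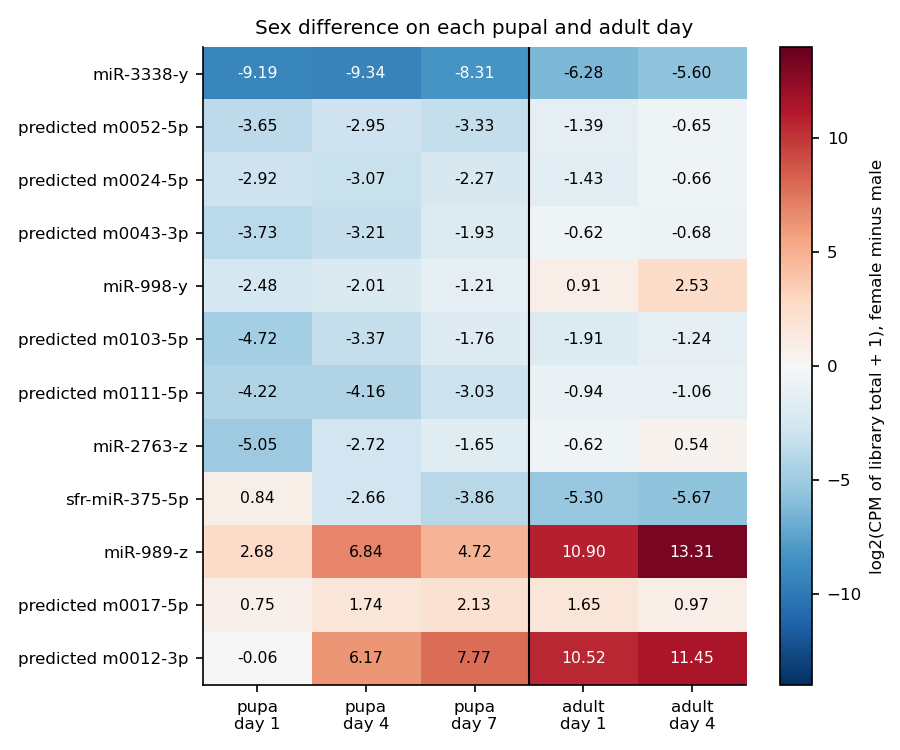
Female minus male difference on the log2 scale (CPM of the library total + 1) on each pupal and adult day for 12 miRNAs, 1 library per sex and day, with red for higher in females and blue for higher in males. miR-998-y turns from -2.48 on pupal day 1 to 2.53 on adult day 4, and miR-3338-y stays below -5 throughout.

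The other 7 miRNAs with a called change between stages were sfr-miR-2765-5p, miR-2765-z, miR-2765-x, miR-1-y, miR-iab-8-x and the predicted m0005-5p and m0042-3p, none of them called in pupae. sfr-miR-2765-5p, a moth miRNA, was higher in males on all 3 pupal days. Females had 2473, 7933 and 483 CPM on days 1, 4 and 7, and males 3107, 12851 and 690 CPM. The pupal log2 difference of -0.51 (SE 0.15) did not pass the test (adjusted p = 0.146). In adults sfr-miR-2765-5p was higher in females, at 548 and 1587 CPM against 102 and 490 CPM in males. The change was 2.09 log2 units (SE 0.42, adjusted p = 0.0469). m0005-5p was even in pupae, with a log2 difference of 0.00, and moved by 2.96 log2 units (SE 0.50, adjusted p = 0.0469) towards females in adults. miR-iab-8-x, from the bithorax complex, had 1 to 5 counts in each pupal library and 111.1 and 605.9 CPM in adult males against 3.35 and 5.01 CPM in adult females.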

How the data were processed

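The authors deposited raw counts of 18 small RNA libraries in 1 table that lists each miRNA by name and sequence. Per the labels' protocols, a TruSeq small RNA kit was used on total RNA, with sequencing on an Illumina HiSeq. Those protocols speak of 9 libraries and do not say which. Aligner, miRNA caller and build: not given in the sources used here; no genome was used and no coordinates are printed. Rows identical in sequence and counts were merged, which left 660 of 741. A near copy (2 or fewer differences over 18 or more bases) exists for 276 of these, and reads may have been split between such rows. Of the 660, 21 have the same sequence as another row but other counts, and they were kept apart.

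Rows averaging 10 or more counts in a fit were tested with edgeR 4.0.16 (R 4.3.3) by the robust quasi-likelihood test with TMM factors, which ran from 0.813 to 1.28 in pupae, and day as a block. The day is the pairing, as the labels give it, and the fit leaves 2 residual degrees of freedom. Benjamini-Hochberg adjustment ran over all tested rows, with a threshold of 0.05. Changes of the sex difference were tested as a sex by day term in the 6 pupal libraries and as a contrast of adults and pupae in 10 libraries. CPM in pupae use the TMM factors, and CPM in other stages the library total. SEs are approximate, from the log2 difference and the F statistic (difference over root F). Differences per day use a pseudocount of 1 CPM. The tests were checked on simulated data. Alternatives were DESeq2 1.42.0 (size factors and Wald test), limma 3.58.1, library totals, no filter, thinned counts, unmerged rows, no block, a fit with adults and leaving out libraries or vertebrate-named rows. Floors of 3 counts cover counting error only. Python 3.11.15, pandas 2.3.3, numpy 2.4.6 and matplotlib 3.10.9 were used.

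The members and lists were chosen with earlier results of these data known. Named miRNAs were every called one, the 10 largest mean differences each way among miRNAs of at least 100 CPM with 1 sign on all 3 days, the 10 largest changes each way from day 1 to day 7, the 6 most abundant and list members. Seed partners, near copies and rows with a called change of the sex difference were named after their values had been seen, and the late male rows and rows ending in CCA were picked out in the same way. No sequence of a vertebrate-named row is given.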

Additional observations from a re-analysis of the deposited data

Results flagged for a closer look

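Sex differences that changed with pupal day were singled out because the test of the change itself passed the threshold. In log2 units per day, with positive values towards females, they were 2.90 for predicted m0012-3p, 0.539 for miR-2763-z and 0.514 for miR-1-x. The slope of m0012-3p rests on 0 counts in males of days 4 and 7, and its size is poorly determined. Towards males they were -0.816 for sfr-miR-375-5p, -0.60 for predicted m0004-3p, -0.772 for miR-21-x, -0.641 for miR-22-y, -0.575 for miR-26-x, -0.891 for miR-27-y and -0.876 for miR-30-x. The last 5 are vertebrate-named rows, whose share of counts was 0.703% in males of day 7 and 0.0601% in females of day 7.

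Sex differences that were unlike in adults and pupae were singled out in the same way. In log2 units, adults minus pupae, the change was 2.09 for sfr-miR-2765-5p, 8.04 for miR-2765-z, 5.68 for miR-2765-x, 2.91 for miR-998-y, 7.37 for miR-989-z, 2.59 for miR-3338-y, 4.09 for miR-152-y, 2.96 for predicted m0005-5p and 3.17 for predicted m0042-3p. It was -1.31 for miR-1-y and -5.74 for miR-iab-8-x. The 3 forms of miR-2765 are near copies and are not independent.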

How the results depend on the processing

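No called difference changed its sign under any alternative run, but without both late male libraries the log2 difference of miR-125-x went from -3.06 to -0.63 and that of miR-152-y from -3.69 to none, each with an adjusted p of 1. The 18 calls between the sexes became 67 with no filter on low counts, 33 with the DESeq2 Wald test, 4 with limma (63 at an unadjusted p under 0.05), 2 with no replicate block by day and 8 with counts thinned to the smallest pupal library. Leaving out 1 library gave 0 to 34, and leaving out both late male libraries, an alternative chosen after seeing the data, gave 0. DESeq2's size factors gave 21, library totals 20, unmerged rows 24, no vertebrate-named rows 14 and the fit with adults 14. The 10 changes with pupal day became 6 with the DESeq2 Wald test, 5 without vertebrate-named rows, and 0 with limma and in the fit of 10 libraries. The 11 changes between adults and pupae became 30 with no filter, 40 with the DESeq2 Wald test, 20 without vertebrate-named rows and 0 to 58 with 1 library left out. The 4 miRNAs past 4-fold on every day became 2, both higher in males, with a pseudocount of 5 and 28 without day 1, 25 of them higher in males. Fewer rows tested or fewer libraries are part of several of these alternatives, and the cause of the other shifts was not tested. Depth limits the late male libraries, where 3 counts are worth 6.35 and 7.16 CPM.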

Other observations

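A group of 18-base rows ending in CCA, the bases added to the 3′ end of every mature tRNA, leaned to females. On day 1 this lean depended on the scaling. The table holds 13 such rows under borrowed miRNA names, and the sequences of the most abundant one, miR-2478-z, and of the one with the largest fitted difference, miR-9995-y, are given with the CCA in capitals.
miR-2478-z: atcccacttctgacaCCA
miR-9995-y: atctcggtggaacctCCA
Of the 9 rows tested, 0 were called and 7 had an unadjusted p under 0.05, all higher in females. Over all 316 tested rows, 31 had such a p towards females and 37 towards males. The rows of the group are not independent. Among the 13, miR-2779-z and miR-7550-z have the same sequence, and miR-9995-y and miR-9993-y are near copies. The median log2 difference over the 9 was 0.76, against 0.10 over all tested rows, and by day it was 0.45, 0.58 and 1.43 on days 1, 4 and 7. miR-2478-z had 4163, 887 and 2099 CPM in females of days 1, 4 and 7 and 3362, 552 and 680 CPM in males. Summed, the 13 rows took 0.716%, 0.209% and 0.481% of the counts in females and 0.719%, 0.146% and 0.191% in males. The shares of day 1 were thus near equal, and the CPM of that day use TMM factors of 0.989 in females and 1.28 in males. Of 2739644 counts in females and 2879957 in males of day 1, miR-2478-z took 11275 and 12425, so its direction there depends on those factors. The group was chosen after its values had been seen and carries no test.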
